A study of Homo sapiens with 2 samples.

Results

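Among the RNAs recovered with a catenin immunoprecipitation (IP) from MDA-MB-231 cells, 8 mRNAs of translation, RNA binding, protein folding, glycolysis, growth signalling and autophagy are described here: NCL, EEF1A1, SARS, SERBP1, HSPA5, PKM, HDGF and CALCOCO2. They are 8 of the 1658 gene symbols with at least 1 listed peak. They were picked by name, from this same peak list, for dense sequencing tags and a density that is high for their fold enrichment. Their tags, density and fold are therefore a description and carry no test. MDA-MB-231 is an established human breast cancer cell line of mesenchymal, triple-negative phenotype. The labels give 2 groups of these cells, an IP titled B-catenin and an input, with 1 library each and no treatment, genotype change or time point named. The IP RNA was taken up in phenol-alcohol and broken to pieces of roughly 300 to 500 bp, per the labels' protocols. The input library was not analysed here, so levels in the cells cannot be set beside the IP, and with 1 library no value has a replicate error.

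Housekeeping mRNAs of this kind are made in large amounts in growing cells. EEF1A1 brings aminoacyl-tRNAs to the ribosome, and seryl-tRNA synthetase (SARS, now named SARS1) charges the serine tRNAs. Nucleolin (NCL) acts in ribosome biogenesis in the nucleolus, and SERBP1 binds mRNAs and ribosomes. HSPA5, also called BiP, is the main HSP70 chaperone of the endoplasmic reticulum (ER). PKM makes pyruvate in the last step of glycolysis, HDGF is a chromatin-binding growth factor, and CALCOCO2 (NDP52) is a receptor that links cargo to autophagosomes.

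The list gives peaks along Ensembl transcripts. A tag is a counted read fragment, the fold enrichment is the authors' own ratio for a peak over a background that the file does not name, and a further authors' column without a name is called the score here. Each gene was represented by its transcript with the most tags. Density is given as tags per kb of peak. Over all 1658 genes the median was 41 tags, 29.8 tags per kb and a fold of 7.55. The cell line's markers were thinly represented: MSN, FN1, EGFR, MMP14 and ZEB1 were listed out of 16 mesenchymal or basal markers, 0 out of 11 luminal markers and 0 out of 7 markers of blood and immune cells. Since VIM and CD44 were among those without a listed peak, absence from this list does not describe the cells.

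All 8 genes carried exactly 1 peak on each listed transcript. A single peak was also found in 68.5% of all genes. Together the 8 peaks held 2688 of 133739 tags, or 2.01% (exact binomial interval 1.94 to 2.09%), on 0.434% of the summed peak length and 0.483% of the symbols. Symbols that share sequence can repeat the same tags in this total, as with ANKHD1 and ANKHD1-EIF4EBP3 at 181 tags each. The interval is therefore nominal. All 8 had at least 100 tags, against 21.4% of all genes. Their labels as abundant RNAs could not be checked, since tags in IP peaks do not measure levels in the cells. By tags in peaks, NCL ranked 10, EEF1A1 19, CALCOCO2 304 and SARS 316 of 1658.

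Of the translation genes, EEF1A1 had 552 tags (exact Poisson interval 507 to 600) in a peak from nt 866 to 3173 of ENST00000316292. This came to 239 tags per kb, rank 3 of all genes, at a fold of 5.37. SARS had 110 tags (90.4 to 133) at nt 3 to 806 of ENST00000369923. Its density of 137 tags per kb ranked 16, although by tags it was the smallest of the 8. Its fold of 3.34 was the 12th lowest in the list. The EEF1A1 peak thus held many tags over a long stretch, and the SARS peak the fewest tags of the group over its shortest stretch, 804 nt.

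Of the RNA-binding proteins, NCL had 939 tags (880 to 1001) at nt 57 to 2644 of ENST00000322723. Its 363 tags per kb were 12.2 times the median of the genes outside the group, and among all genes only CTNNB1, the beta-catenin mRNA itself, was denser at 1087. NCL had the highest fold of the group, 11.94, and its score of 3084.5 ranked 14 of 1658. SERBP1 had 227 tags (198 to 259) over nt 1 to 1604 of ENST00000361219, with 142 tags per kb and a fold of 4.62. NCL stood apart from the other 7 in fold: none of them exceeded 6.01.

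HSPA5 had 356 tags (320 to 395) at nt 56 to 2577 of ENST00000324460, the second longest peak of the group. Its density was 141 tags per kb and its fold 4.02. The HSPA5 score was only 43.97, below the median score of 75.25 over all genes, although it ranked 46 by tags.

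PKM had 213 tags (185 to 244) at nt 240 to 1427 of ENST00000565154. It ranked 6 by density, with 179 tags per kb, and last by fold, with 2.55. HDGF had 178 tags (153 to 206) at nt 247 to 1201 of ENST00000357325, with 186 tags per kb and a fold of 6.01. CALCOCO2 had 113 tags (93.1 to 136) at nt 260 to 1422 of ENST00000258947. It was the least dense of the 8, with 97.2 tags per kb at rank 41, and its fold of 2.85 was the lowest but for PKM and PDCD6IP.

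**Figure D1:**
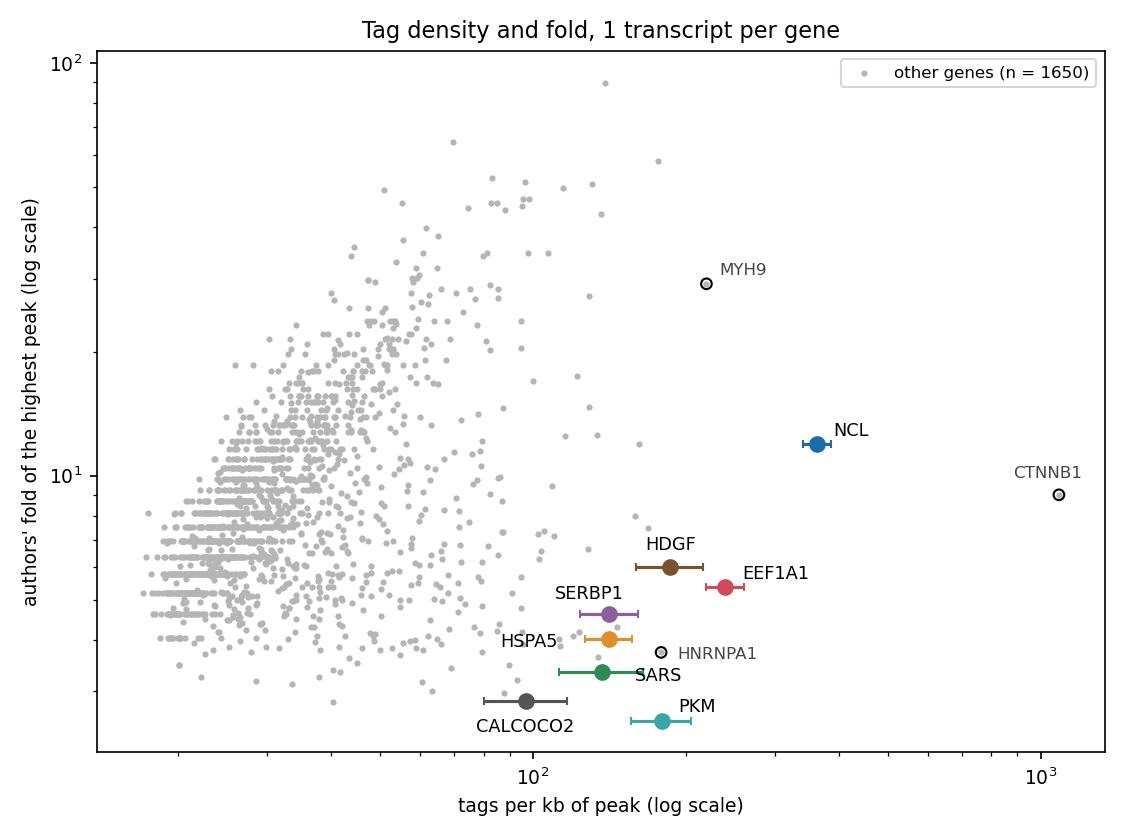
Tags per kb of peak against the authors' fold of the highest peak, both on log scales, with 1 point per gene; the 8 genes are coloured with exact Poisson 95% intervals of the density, and 3 other genes are circled. The 8 lie towards the right, between 97.2 and 363 tags per kb, with folds from 2.55 to 11.94. NCL, the highest of them in fold, lies above the median fold of all genes, 7.55, and the others lie below it.

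By fold, 5 of the 8 genes (NCL, EEF1A1, SERBP1, HSPA5 and HDGF) reached 4, against 97.2% of all genes. The remaining 3, SARS, PKM and CALCOCO2, lay under 4, where 2.83% of all genes lay. A fold of at least 5 was reached by 3 of the 8, against 88.5%, and a fold of at least 10 by NCL, against 30.3%. These shares use the values by which the genes were picked and are given for scale only.

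Dividing tags per kb by fold gives a relative figure for the background density that the authors' fold would imply if the mean of a peak stood for its summit. The file does not say how the fold was made, so only the order of this figure is of use. It was highest for CTNNB1 at 121, and PKM followed at 70.3. EEF1A1 stood at 44.5, SARS at 41, HSPA5 at 35.1 and CALCOCO2 at 34.1. HDGF at 31.0, SERBP1 at 30.6 and NCL at 30.4 were the lowest of the group. All 8 were within the first 12 ranks of the list, and the median of the other 1650 genes was 3.59.

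The 8 were not the only genes there. HNRNPA1, a nuclear ribonucleoprotein, ranked 3 with 331 tags, 179 tags per kb, a fold of 3.73 and a figure of 48.0. HNRNPC reached 34.0 and the histone chaperone gene SET 29.5. By density alone, MYH9 (nonmuscle myosin, 220 tags per kb) and ANKRD11 (177) lay among the 8, but their folds were 29.19 and 57.88. A high density therefore did not go with a low fold in every gene.

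Genes with a like number of tags are set beside each of the 8 for scale. Fold and density are the values by which the 8 were picked, so a low fold here follows in part from that choice. A gene with several peaks took the fold of its highest peak. For each of the 8, the other genes with tags within 1.25 times its own were taken, a range chosen after the values were seen. NCL had 8 such genes with folds from 16.99 to 57.88, all above its own 11.94. EEF1A1 had 16, with folds from 6.43 to 49.2, again all above its 5.37. All 98 genes near PKM and all 163 near CALCOCO2 had a higher fold than these too, with medians of 14.5 and 11.6.

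For the other 4 genes a few of like tag count had a lower fold. These were 1 of 34 for HSPA5, 2 of 165 for SARS, 6 of 83 for SERBP1 and 13 of 113 for HDGF. The medians were 17.4 for the genes near HSPA5, 11.6 near SARS, 15.6 near SERBP1 and 14.1 near HDGF. HDGF thus lay nearest to the bulk of such genes, and the other 7 at or near the low end.

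**Figure D2:**
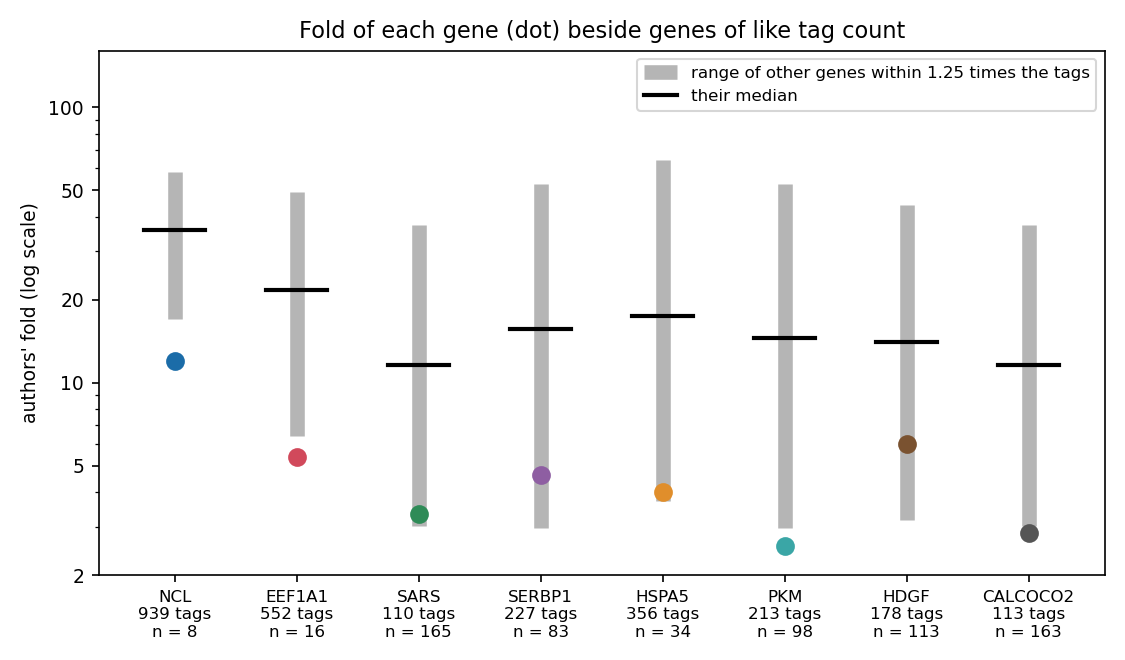
The authors' fold on a log scale for each of the 8 genes (coloured dots), beside the range (grey bar) and median (black line) of other genes within 1.25 times its tags; n is the number of those genes. Each dot lies below the median, and those of NCL, EEF1A1, PKM and CALCOCO2 lie below the whole range.

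The peaks of the 8 were also short for their tags, where a gene's length is summed over its peaks. Each of the 8 had 1 peak, while the other 346 genes with at least 100 tags had 734 peaks. The HDGF peak had 955 nt, against a median of 3700 nt of peak in the 113 genes of like tag count, none of which was shorter. The same held for NCL (2588 against 8662 nt), EEF1A1 (2308 against 7116), SARS (804 against 2731) and PKM (1188 against 3980). Genes with shorter peaks were found for CALCOCO2 (1 of 163), SERBP1 (2 of 83) and HSPA5 (4 of 34). Peak length enters the density, so this is another view of the values that defined the group.

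Scores were low for the tags as well, where a gene with several peaks took its highest score. The 8 were picked for a density high for their fold, and how the score was made is not stated. Low scores may therefore follow from that choice and are not given as a separate trait. HSPA5 at 43.97 stood beside a median of 836.56 for its 34 genes of like tag count, 1 of which was lower. PKM at 43.67 stood beside 493.22 and SARS at 36.37 beside 211.07, with 3 lower genes in each case. EEF1A1 reached 391.71, against 1355.6, and SERBP1 189.96, against 598.97. CALCOCO2 had 63.74, against 214.04. HDGF, at 191.13 against 329.09, was nearer to its genes of like tag count. NCL had 3084.5 against 3100, a value that CTNNB1, MYH9 and ANKRD11 each bore exactly. It lies near the highest score of the list, 3228.29, so how near NCL lay to its genes cannot be judged. A score of at least 50 was reached by 5 of the 8 genes, against 69.7% of all genes. A score of at least 100 was reached by 4 of the 8 genes, against 39.4% of all genes.

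Folds in this list often fall on whole multiples of 0.579, to within 0.0051; this held for 70.1% of the 2440 peaks with 1 transcript per gene. None of the 8 peaks did, nor did any of the 19 peaks on all listed transcripts of these genes. Among other genes with at least 100 tags, 66.5% of 734 peaks lay on the multiples. All 8 genes thus belong to the 32.1% of genes with no peak on the multiples. The other 525 genes of that kind had a median density of 38.2 tags per kb and a median fold of 6.38. In genes with every peak on the multiples, tags per kb over fold reached at most 25.9, below the lowest of the 8, 30.4. The 8 were picked for a density high for their fold, so their place off the multiples is not a separate trait.

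Isoforms were listed for EEF1A1 (3 transcripts), SERBP1 (4), PKM (5) and HDGF (3), and 1 transcript for each of the other 4 genes. Transcripts of a gene share reads, so their peaks are not independent. In PKM, the transcripts ENST00000319622, ENST00000565184 and ENST00000568459 each had a peak of 1105 nt with 211 tags, starting at nt 475, 264 and 164. ENST00000565154 had a peak of 1188 nt with 213 tags. In all 4 the summit lay 280 nt before the end of the peak, and the folds were 2.55 or 2.56.

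The fifth PKM transcript, ENST00000568883, differed from these. Its peak ran from nt 211 to 728, with 84 tags (67.0 to 104) and a fold of 4.8. The fold was 1.88 times the lowest of the gene on 39.4% as many tags as the highest. The file does not say which splice form of PKM each transcript encodes.

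In HDGF, ENST00000357325 and ENST00000537739 both had 955 nt and 178 tags, with folds of 6.01 and 6.21. ENST00000368209 had 858 nt, 165 tags and a fold of 6.75. The summit lay 509 nt before the peak end in all 3. In SERBP1, the transcripts with 227 and 221 tags had folds of 4.62 and 4.60, and those with 193 and 192 tags had 5.30 and 5.78. In EEF1A1, ENST00000610520 (467 tags, fold 5.96) and ENST00000615060 (437 tags, fold 5.97) had their peaks from nt 11, not from nt 866. Their summits lay 1936 and 1996 nt before the peak end, against 1991 nt in ENST00000316292.

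**Figure D3:**
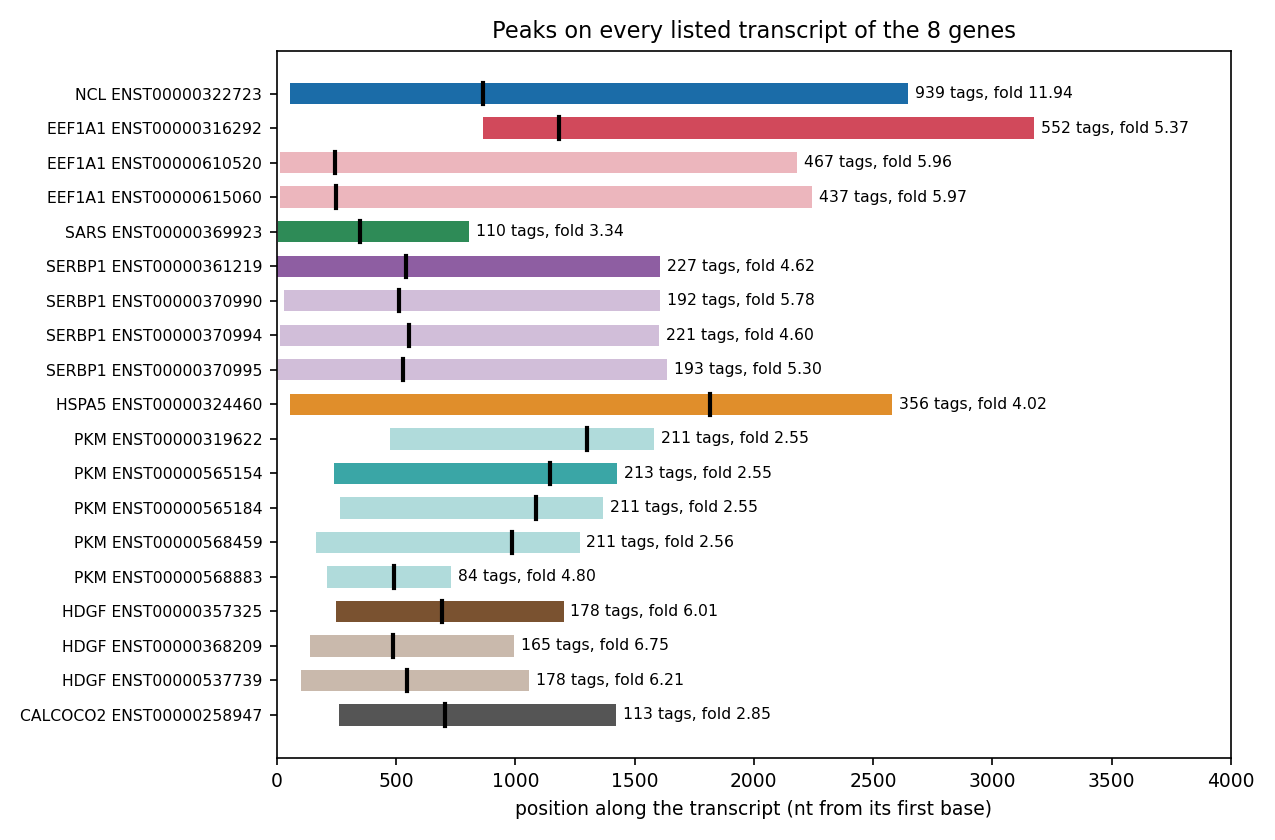
Peaks along each of the 19 listed transcripts of the 8 genes in nt from the transcript's first base; dark bars mark the transcript that represents the gene, pale bars its other transcripts, black lines the summits, and tags and fold stand beside each bar. The 4 long PKM peaks have their summit in the 3' part of the peak, 280 nt before its end, and the EEF1A1 peaks in the 5' part.

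In all 4 genes with several transcripts, the transcript with the most tags had a lower fold than the one with the fewest. Among other genes with 1 peak in every transcript and at least 100 tags, this was so for 39 of 91, or 42.9%, and the opposite for 34.1%. With 4 genes this is a description only. Between the transcripts of a gene, tags differed by 1.08 times in HDGF, 1.18 times in SERBP1, 1.26 times in EEF1A1 and 2.54 times in PKM.

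**Figure D4:**
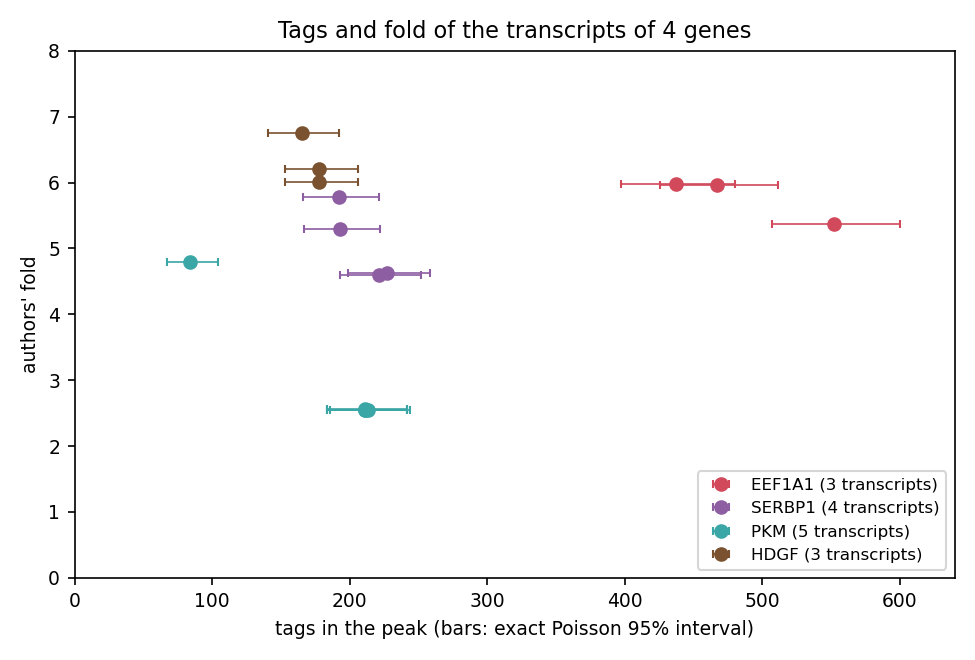
Tags in the peak (horizontal bars: exact Poisson 95% intervals) against the authors' fold for the transcripts of EEF1A1, SERBP1, PKM and HDGF, 1 dot per transcript. Within each gene the dot with the fewest tags lies above the dot with the most tags; some dots overlap.

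Summits lay at different places within the peaks. The EEF1A1 summit, at nt 1182, was 13.7% along its peak, NCL at nt 864 was 31.2% along, and SERBP1 at nt 540 was 33.7% along. CALCOCO2 (38.3%), SARS (43.2%) and HDGF (46.7%) were nearer to the middle. HSPA5, at nt 1818, and PKM, at nt 1147, had theirs in the 3' part of the peak, 69.9% and 76.4% along. The median of the 8 was 40.7%, and of the 2432 other peaks 48.1%, so the group shared no common position.

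By the authors' region labels, EEF1A1, NCL, SERBP1 and HSPA5 were marked as 3' untranslated plus coding, PKM and CALCOCO2 as coding, HDGF as 3' untranslated and SARS as 5' untranslated plus coding. Of the other 2432 peaks, 19.6% bore 3' untranslated plus coding (4 of the 8), 39.8% coding (2 of the 8), 28.2% 3' untranslated (1 of the 8) and 8.63% 5' untranslated plus coding (1 of the 8). These labels depended on the transcript. The 3 PKM peaks of 1105 nt and 211 tags bore coding once and 3' untranslated plus coding otherwise, and the SERBP1 peaks, all starting within the first 30 nt and ending between nt 1602 and 1636, bore 3 different labels. The HDGF peak, labelled 3' untranslated, began at nt 247 of its transcript.

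Of the annotation that the authors joined to the genes, RNA binding was given for 5 of the 8 (NCL, EEF1A1, SERBP1, PKM and HDGF) and for 20.2% of the 1650 other genes. Extracellular region was given for 6, all but SARS and CALCOCO2, against 17.3%, and cytoplasm for 8, against 65.8%. The nucleus was given for 7, against 58.7%, the cytosol for 5, against 40.2%, and the nucleolus for NCL and EEF1A1, against 10.4%. These terms were chosen after they were seen, and with 8 genes the counts are a description.

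The mRNAs of the same pathways are given beside these genes for scale, since the 8 were picked for their density. Of 33 translation elongation and initiation factors, 10 had a peak, with a median of 66.0 tags per kb and a median fold of 6.88. After EEF1A1 the densest were EIF3C, a subunit of initiation factor eIF3 (169 tags per kb, fold 7.47), and the scaffold EIF4G1 (116, fold 12.45). EIF3C has a near-identical copy, EIF3CL, which was listed with 159 tags per kb, so its tags may be shared. Of 22 cytosolic aminoacyl-tRNA synthetase genes, only SARS and LARS, the leucine enzyme (31.6 tags per kb, fold 7.52), were listed.

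Of 30 nucleolus and ribosome biogenesis genes, 17 had a peak, with a median of 43.1 tags per kb and a median fold of 8.83. NOLC1, a nucleolar phosphoprotein, was nearest to NCL in density (128, fold 6.64), followed by the helicase DDX21 (122, fold 17.47). Of 34 abundant RNA-binding protein genes, 17 had a peak, with a median of 78.6 tags per kb and a median fold of 5.54. There HNRNPA1 and HNRNPC (146 tags per kb, fold 4.3) were denser than SERBP1, and HNRNPA1 and FXR1 (fold 3.82) lay under a fold of 4.

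Of 19 glycolysis genes, 3 had a peak. The hexokinases HK1 (59.8 tags per kb, fold 7.77) and HK2 (33.2, fold 11.58) were both less dense than PKM and higher in fold. Of 27 ER chaperone and folding genes, 5 had a peak, with a median of 34.1 tags per kb. These were HSPA5, the oxidase ERO1A (59.6, fold 5.69), the glycoprotein sensor UGGT1 (34.1, fold 16.79), DNAJC10 (30.5, fold 6.24) and SEL1L (25.9, fold 8.1). Of 22 cytosolic heat shock and chaperonin genes, HSPA4 (58.5, fold 3.99) and HSPH1 (35.8, fold 5.11) had a peak.

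In the HDGF family, PSIP1 was the only other listed gene of 5 (66.9 tags per kb, fold 8.27). Of 18 autophagy receptor genes, 5 had a peak, with a median fold of 3.84. After CALCOCO2, its relative TAX1BP1 (45.0 tags per kb, fold 3.52) and OPTN (41.4, fold 3.84) also lay under 4, while NBR1 (53.0, fold 14.42) and CALCOCO1 (28.0, fold 5.11) did not. Among cytosolic ribosomal protein genes, RPS3 (35.2, fold 9.84) and RPL27A (32.7, fold 5.45) had a peak. Each of the 8 genes except SERBP1 was the densest of its list. The 8 were picked for dense tags, and the lists were chosen with earlier results known, so this rank is no separate finding.

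The genes nearest to each of the 8 in tags per kb and fold, by Euclidean distance on log2 scales, were few and recurred. HNRNPC was nearest to SERBP1 and to HSPA5 (distance 0.11 for both). SET also lay near SERBP1 (0.25), YWHAZ near SARS (0.35) and SPATS2L near CALCOCO2 (0.17). EIF3C was nearest to HDGF (0.35, then EIF3CL at 0.47). HNRNPA1 was nearest to PKM (0.55) and to EEF1A1 (0.67, then EIF3C at 0.69). NCL had no close neighbour: AP3D1, an adaptor subunit gene, lay at a distance of 1.2 and EIF3C at 1.3. The distance uses 2 values from 1 library and says nothing of shared function.

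Copies in the genome limit some of these counts. By name, the RefSeq table for GRCh38.p14 holds 50 pseudogenes of EEF1A1, 6 of SERBP1, 5 of PKM, 2 of NCL and 1 each of HSPA5 and HDGF. None of them had a peak in the list. The sources used here do not say how reads that match several places were assigned, so the tags of EEF1A1 above all are uncertain.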

How the data were processed

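The series holds 2 MDA-MB-231 samples in 2 groups (catenin IP and input), 1 library each; the file used here is a peak list of the IP sample. Per the file headers, it gives the count of tags in each peak, the authors' fold enrichment, a ratio to an unnamed background, and start, end, length and summit along Ensembl transcripts. A column that lost its name was treated as a deposited score of unstated meaning (minimum 30). The submitters' processing notes name the build hg18; the aligner, peak caller and annotation are not named in the labels or the file. Summits were read as offsets from the peak start, since none exceeded the length.

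From the 6195 peaks on 4439 transcripts, each symbol took the transcript with the most summed tags (ties: lowest ID), giving 2440 peaks and 1658 genes. A gene's fold is that of its highest peak. Peaks carried 11 to 3078 tags; library depth is unknown. Poisson and Clopper-Pearson intervals are exact, at 95%, and cover counting error only; tags are not independent molecules. With 1 library per group no test was made. Named genes were the 8 members, the 5 other genes leading by density and by density over fold, 2 nearest neighbours per member, and the listed genes of fixed lists; a few of these are not reported here. Members and lists were chosen with earlier results of these data known. Symbols were matched to the RefSeq table (GRCh38.p14) for names only. Alternatives were another choice of transcript, medians over transcripts and minimums of fold or score. Scripts ran in Python 3.11.15 with pandas 2.3.3, numpy 2.4.6, scipy 1.17.1 and matplotlib 3.10.9, and were tested on simulated data.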

Additional observations from a re-analysis of the deposited data

How the results depend on the processing

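No paired analysis was possible because the IP and the input are single libraries. In the main setting, the medians over the 8 genes were 220 tags, 160 tags per kb and a fold of 4.32. With the transcript of highest fold the median tags were 178 and the median fold 5.29; with medians over every transcript the fold was 4.49. Peaks with a fold of at least 4 left 6 genes, without SARS and CALCOCO2, with medians of 292 tags and a fold of 5.08. A score of at least 50 left 6 genes, without SARS and HSPA5 (189 tags per kb, fold 5.0). A score of at least 100 left 5, without CALCOCO2 too (186 tags per kb, fold 5.37), and 5 of them were then among the 20 highest by tags per kb over fold, against 8. Fewer genes enter these medians by construction. PKM moved most: a fold of at least 4 or a score of at least 100 left only ENST00000568883, with 84 tags and a fold of 4.8. Of 41 summary values under alternatives 31 were classed as the same and 10 as moved. Counts of genes were the same within 1.5 times, and other values but folds within counting error. A fold was classed as moved at any change seen here, even from 4.32 to 4.49. Of 99 values of single genes 18 moved. SARS and CALCOCO2 had the fewest tags of the 8, with intervals of 90.4 to 133 and 93.1 to 136.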
